A study of Caenorhabditis elegans with 60 samples.

Results

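The 200 loci described here are the CSR-1 genes that carry the most gonad small RNA in Caenorhabditis elegans. They were chosen as the 200 CSR-1 rows, of 3640 in the gonad small RNA table, with the highest mean over 3 wild-type gonad libraries. The loci were thus selected on the wild-type gonad values themselves, and every gonad small RNA value below describes them without a test. The tests use mRNA and whole-animal libraries that took no part in the choice. CSR-1 class is the authors' own annotation of each gene. No CSR-1 immunoprecipitate is used here to check it.

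CSR-1 is an essential germline Argonaute. It binds 22G-RNAs, short antisense RNAs that begin with guanosine and are made on mRNA templates by the RNA-dependent RNA polymerase EGO-1 in germ granules. Unlike the WAGO Argonautes, which silence transposons, pseudogenes and some genes, CSR-1 is known for targeting genes that the germline expresses, and its slicer activity trims maternal mRNAs in oocytes and embryos. HENN-1 methylates the last ribose of piRNAs and some other primary small RNAs, whereas 22G-RNAs are as a rule unmethylated, so periodate oxidation removes them from a library.

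Gonads dissected from gravid adults grown at 20 C for 68 to 70 h gave 3 small RNA and 3 mRNA libraries of wild type (N2) and of henn-1(pk2295) III. The small RNA samples are labelled as dissected gonads, although their extraction note speaks of whole frozen worms. Whole N2 and rde-1(ne219) V animals gave 3 libraries each, untreated (L4 larvae, 52 h) or oxidized with periodate. The oxidized samples are called L4 in one label and gravid adults of 68 h in another, so if the second is right, stage and oxidation cannot be told apart. RDE-1 is the Argonaute that binds primary small interfering RNAs. HRDE-1 was precipitated with anti-FLAG from FLAG::hrde-1 II adults, and WAGO-1 with anti-GFP from adults that carry, on chromosome I, both mut-16::mCherry + loxP (allele cmp41) and the tagged (GFP + loxP + 3xFLAG)::wago-1 (allele cmp92), all of 68 h. Each of these has 1 input and 1 IP library. All small RNA libraries were treated with polyphosphatase, which lets triphosphorylated 22G-RNAs be cloned. Nothing in the labels shows whether replicates came from different cultures. The p-values therefore reflect only how far these libraries varied, and that variation may be technical.

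Recovered read totals ran from 4215264 to 8745475 in the gonad small RNA libraries and from 6311071 to 13613629 in the oxidation set. The henn-1 transcript stood at 2192, 2240 and 2298 in wild-type gonads and at 234, 249 and 229 in henn-1 gonads, which matches the genotype labels. The tissue carried its germline markers: the 8 listed genes summed to between 74593 and 77420 in wild type and between 65349 and 66630 in henn-1, and pgl-1, glh-1 and rme-2 of that list are themselves among the 200. Muscle markers summed to between 455 and 556 in wild type and between 871 and 1275 in henn-1, with 5 of 6 called higher. Sperm markers varied widely between libraries of 1 group, from 71.0 to 336 in wild type and from 89.6 to 686 in henn-1, as did intestine markers (75.1 to 359 and 101 to 321).

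The locus with the most 22G-RNA was snrp-200 (Y46G5A.4), which encodes the helicase of the U5 splicing particle. Its normalized signal was 21415, 20646 and 22218 in wild-type gonads and 22757, 21264 and 21102 in henn-1 gonads. Next came klp-7 (K11D9.1), the microtubule-depolymerizing kinesin, with 20413, 18763 and 20251 in wild type and 18362, 17460 and 17241 in henn-1. The genotypes overlapped at snrp-200, while at klp-7 every henn-1 library lay below every wild-type library, by a ratio of means of 0.893. The paralogs set-9 and set-26, SET-domain proteins of chromatin, stood at 14771 ± 762 (SD, n = 3) and 10400 ± 592. Reads of such close copies may have been split or shared by the authors' counting, as may those of klp-15 and klp-16, egg-4 and egg-5, gpr-1 and gpr-2, and memi-2 and memi-3, all among the 200.

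The rest of the 10 highest were cls-2, a microtubule-binding CLASP protein (14668 ± 605), Y37H9A.3 (named ccct-1 in RefSeq, 14070 ± 1253), klp-18, a kinesin of the meiotic spindle (12429 ± 1126), top-2, topoisomerase II (11169 ± 891), hum-2, a class V myosin (10428 ± 338), and klp-19, a chromokinesin (10012 ± 619). Neighbours from set-9 to Y37H9A.3, and again from top-2 to klp-19, lay within the larger of their SDs of each other, while the other steps in this order were wider. Values are not per length, so a long transcript can rank high for its length alone. The last 2 on the list are nkcc-1 (1863 ± 19.9) and cbd-1, a chitin-binding eggshell protein (1852 ± 70.8). Just outside stood mog-1 (1850) and syp-4 (1843), closer to the last members than the spread of cbd-1.

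Ranks were similar between libraries, but the wild-type gonad libraries themselves set the ranking, so their overlap with it is partly built in. Each single wild-type gonad library placed between 192 and 196 of the loci among its own 200 highest CSR-1 rows, and each henn-1 gonad library between 186 and 187. In whole animals, which the choice did not use, the mean of the untreated wild-type libraries held 160 of them in its top 200 and 194 in its top 400, and the mean of untreated rde-1 held 158 and 188. The HRDE-1 input of whole adults held 181 and the WAGO-1 input 168. Far lower in whole animals was mrp-4, an ABC transporter of rank 125 in gonads, with 16.2, 20.6 and 34.5 RPM (reads scaled to the library total) in untreated wild type and 8.74, 3.49 and 17.3 in rde-1.

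The 200 loci, 5.49% of CSR-1 rows, held 38.7%, 38.3% and 39.3% of the signal of all CSR-1 rows in wild-type gonads. Across henn-1 gonads they held 37.4%, 37.4% and 38.1%. In untreated whole animals the share was 34.9% ± 0.0519 (SD, n = 3) in wild type and 34.8% ± 1.34 in rde-1, which overlap (exact permutation test, two-sided, p = 1).

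**Figure D1:**
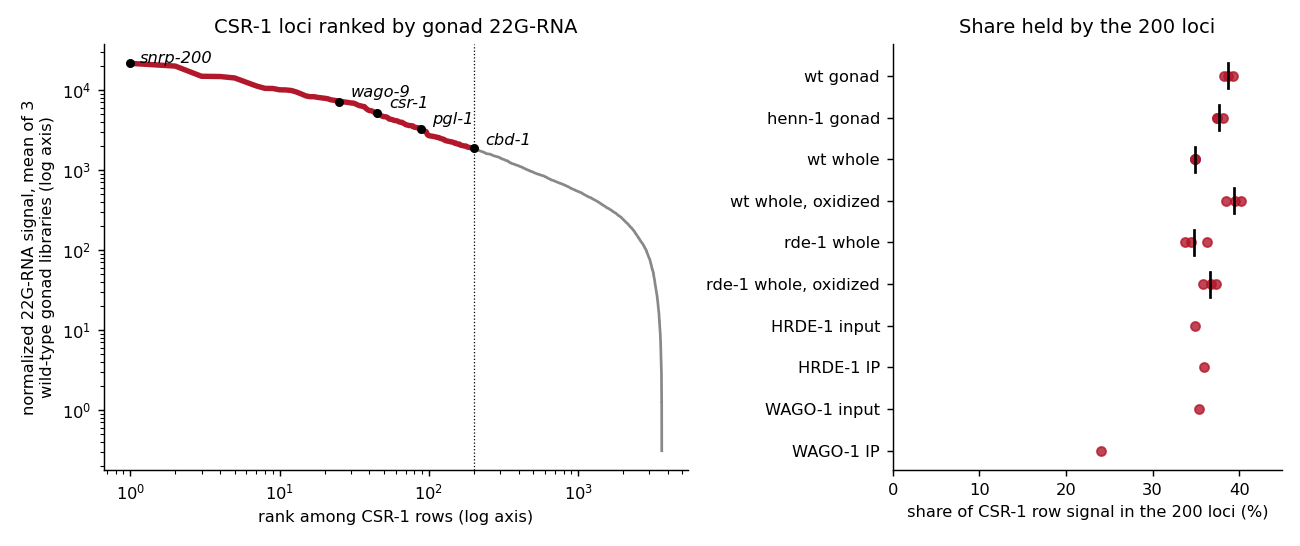
Left, mean normalized 22G-RNA signal of each CSR-1 row in 3 wild-type gonad libraries against its rank, both on log axes, with the 200 loci in red and 5 of them marked. Right, share of all CSR-1 row signal held by the 200 loci in each library (points) with group means (bars): 38.3% to 39.3% in wild-type gonads, 24% in the WAGO-1 IP.

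Of the 200 loci, 81 are on at least 1 of the gene lists used here and the others are on none. The list with the most members was that of spindles and chromosomes: of 53 CSR-1 rows on a list for mitosis and chromosome segregation, 26 were among the 200, or 49.1%, against 5.49% of all CSR-1 rows. They included klp-7, klp-18, the INCENP ortholog icp-1 (9812 ± 1121) and the centromeric histone hcp-3 (8211 ± 191), with cohesin scc-1 (8050 ± 360) close behind. All 9 kinesin rows of the class were members (klp-7, klp-18, klp-19, klp-10, klp-16, klp-15, bmk-1, unc-116 and zen-4), on a list drawn up after their ranks were seen. Of 19 rows on a list of SET-domain and histone methylation genes, also drawn up afterwards, 7 were members.

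The small RNA pathway's own genes were also present. Of 24 CSR-1 rows on the list of Argonautes and 22G-RNA machinery, 8 were members, or 33.3%. The highest was wago-9, the gene of the nuclear Argonaute HRDE-1, at 7106 ± 359. Then came csr-1 itself (5110 ± 147), ppw-2 (4125 ± 138) and wago-4 (4106 ± 162), both Argonautes of the WAGO clade, followed by ego-1, mut-14, rde-12 and mut-7. Of 17 rows on the germ granule list, 9 were members. They were led by glh-4, a Vasa-related helicase (7849 ± 766), pid-2, a Z granule protein (5625 ± 402), and znfx-1, the Z granule helicase (5410 ± 120), and held glh-1 (4331 ± 371), pgl-1 (3265 ± 181), car-1, pgl-3, mip-1 and wago-4.

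Eggshell and egg activation genes contributed 4 of 11: egg-5 (4752 ± 128) and egg-4 (4496 ± 168), pseudophosphatases of egg activation, with the yolk receptor rme-2 (2098 ± 76.1) and cbd-1. Among other lists, 4 of 33 meiosis genes (htp-1, htp-3, chk-2 and zim-1), 1 of 24 oocyte and maternal RNA-binding genes (puf-11), 1 of 26 translation factors (gcn-1) and 0 of 18 ribosomal protein rows were members. The lists share genes, and these counts describe the ranking without a test. Gene neighbours in the RefSeq order (WBcel235) made up 11 pairs, which hold 21 of the loci, among them scc-1 with unc-85, tebp-2 with cec-6, and pgl-3 with hil-4.

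**Figure D2:**
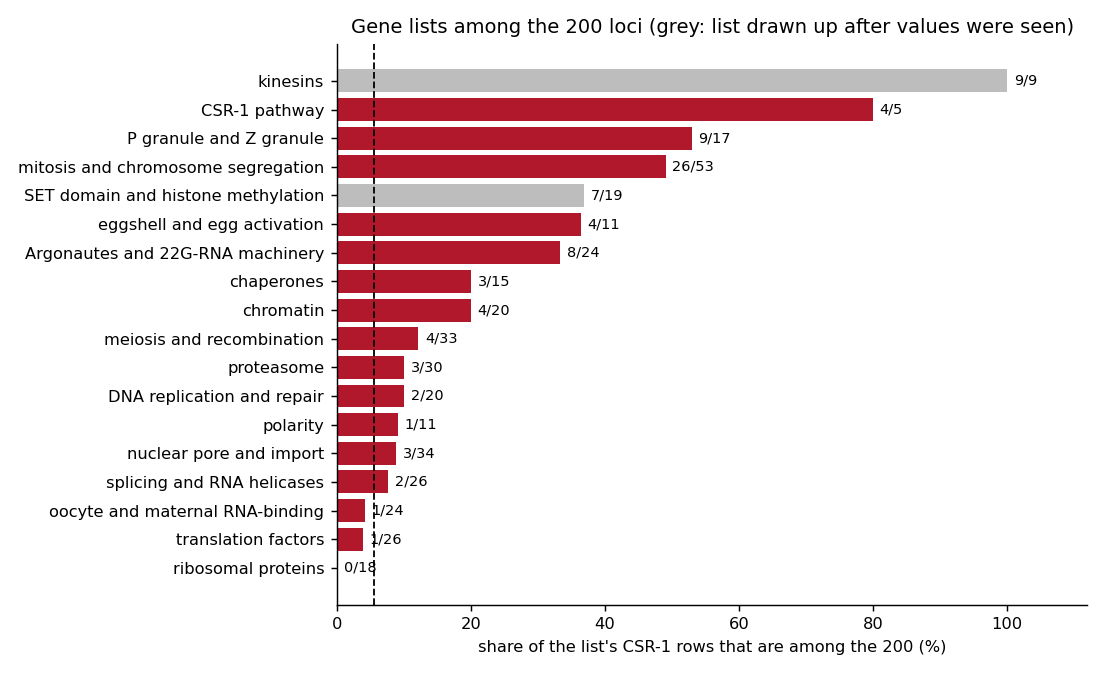
Share of each list's CSR-1 rows that are among the 200 loci (bars, in percent, with members over rows), with a dashed line at the 5.49% of all CSR-1 rows. Grey bars mark the 2 lists drawn up after values were seen; the bars run from 9 of 9 kinesin rows to 0 of 18 ribosomal protein rows.

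The loci were also among the better expressed genes of the gonad. Their median normalized mRNA value in wild type was 4605, against 1665 for the remaining 3440 CSR-1 rows and 638 for all 8503 genes with a mean of at least 10, and 187 of 200 reached 1000. By rank of 22G-RNA the median mRNA value was 4605 for the 200 loci, 4024 for the next 200 rows, 2916 for those down to rank 1000, and 1365 beyond. Across all 3640 rows, 22G-RNA and mRNA values rose together (Spearman's rho 0.61). Within the 200 rho was 0.0095, but these were chosen by the same 22G-RNA values, and a narrower range lowers a correlation by itself. Neither value is per length, and loci are not independent replicates.

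The ratio of 22G-RNA to mRNA within a gene spread widely over the 200. At the low end stood daf-21, the Hsp90 gene, with a 22G-RNA signal of 1899 beside the highest mRNA value of the 200 (89416), a ratio of 0.0213. At the high end stood Y37H9A.3, with 14070 beside 474, a ratio of 29.6, and Y50D7A.1 and K06B9.2, with ratios of 26.6 and 24.9. The median ratio was 0.722 for the 200 and 0.147 for the remaining CSR-1 rows, a difference that the choice of loci itself favours.

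In henn-1 gonads the 22G-RNA signal of the loci was close to that of wild type. The median log2 ratio of means, henn-1 over wild type, was -0.01, against 0.05 for the remaining CSR-1 rows, with 92 loci above 0 and 108 below. No locus was more than 1.5-fold higher and 2 were more than 1.5-fold lower, where 38% and 10.1% of all rows in the table with a mean of at least 10 passed those bounds. Of 3342 remaining CSR-1 rows with such a mean, 34 were more than 1.5-fold higher and 44 lower, so few rows of the whole class passed. Since high wild-type values chose the loci, a slight drop in any other library is built into the choice. With other scalings the median was -0.27 (TMM factors) or -0.10 (library totals). A scaling moves all rows of a library together, so these medians are not to be set beside the 0.05 of the remaining CSR-1 rows.

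The 2 loci past 1.5-fold were prde-1 and ostb-1. prde-1 (F21A3.5), needed for transcription of piRNA precursors, stood at 3512, 3748 and 3449 in wild type and at 1772, 1743 and 1944 in henn-1, a ratio of 0.510. ostb-1, an oligosaccharyltransferase subunit, stood at 3362, 3342 and 3404 against 2037, 2318 and 2372, a ratio of 0.666. In both, every henn-1 library lay below every wild-type library. F13D12.5 and symk-1, the symplekin gene, followed with ratios of 0.742 each. The highest ratios were those of cec-7 (1.19), fln-1 (1.19), gcn-1 (1.17) and set-16 (1.17).

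Messenger RNA, measured in separate libraries, was lower in henn-1 at most of the loci. Of the 200, all of which passed the minimum mean of 10, 126 were called lower and 0 higher in henn-1 (limma, adjusted p under 0.05). Of all 8750 genes tested, 12.4% were called lower and 7.44% higher. At an unadjusted p under 0.05, 165 loci were lower and 0 higher, against 1781 and 1364 of all genes tested. The differences were small: the median log2 difference was -0.19 over the 200, -0.06 over the remaining CSR-1 genes and 0.02 over all genes tested.

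The share called lower fell with the rank of 22G-RNA: 63% for the 200 loci, 55% for the next 200 rows, 43% for those down to rank 1000, and 13.6% beyond. Within the CSR-1 class, genes with more mRNA were called more often, so the loci were also set beside genes of the same level. Among genes with wild-type values from 3000 to 10000, 66 of 93 loci, 310 of 826 remaining CSR-1 genes and 53 of 220 genes outside the class were called lower, with medians of -0.19, -0.10 and -0.05. From 1000 to 3000 the counts were 28 of 60, 302 of 1440 and 88 of 715. Above 10000 they were 30 of 34, 34 of 93 and 6 of 80.

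The largest falls among called loci whose groups did not overlap were in wago-4, maph-1.2, klp-7, F34D10.4, tebp-2 and snrp-200. wago-4, an Argonaute of inherited silencing, stood at 3447, 3600 and 4074 in wild type and at 2868, 2659 and 2961 in henn-1, and fell by 0.39 on the log2 scale (SE 0.063, adjusted p = 0.0050). klp-7 stood at 4614, 4496 and 4669 against 3558, 3691 and 3446, and fell by 0.37 (SE 0.039, adjusted p = 0.00056). snrp-200 stood at 6539, 6082 and 6526 against 4867, 5221 and 4850, and fell by 0.36 (SE 0.045, adjusted p = 0.0018). The groups did not overlap at any of these 3, of which klp-7 and snrp-200 carry the most 22G-RNA of all CSR-1 rows. K06B9.2 had a larger log2 difference, -0.54, that did not pass the test (adjusted p = 0.052). tebp-2 (T12E12.3), a telomere-binding protein, stood at 1508, 1642 and 1672 against 1247, 1223 and 1276, and fell by 0.36 (SE 0.048, adjusted p = 0.0023).

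By group, 16 of the 26 mitosis loci, 6 of the 9 germ granule loci, 5 of the 8 loci of the Argonaute and 22G-RNA list and all 4 eggshell loci fell, and none rose. Apart from the 4 eggshell loci, these shares are close to the 63% of all the loci. Of the CSR-1 pathway genes among the 200, csr-1 fell by 0.15 (SE 0.038, adjusted p = 0.023) and pgl-1 by 0.19 (SE 0.048, adjusted p = 0.023). ego-1 and glh-1 did not pass the test (adjusted p = 0.14 and 0.31). Outside the 200, drh-3, the Dicer-related helicase, and cid-1, the uridylyltransferase, fell by 0.18 and 0.17, while ekl-1 and rrf-1 did not pass (adjusted p = 0.40 and 0.073). Not every locus moved: the log2 difference was -0.0028 at hcp-3 and 0.04 at mut-14.

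The sum of the germline markers was lower and that of the muscle markers higher in every henn-1 library, and the part of tissue makeup in these mRNA differences was not tested. Fewer cells of a type and less RNA per cell cannot be told apart in such samples. The count of 126, beside 1082 of all 8750 genes tested, changed with the libraries and the fit. It fell to 68 without the third wild-type library (434 of 8842 genes) and to 75 without the second henn-1 library (451 of 8763). In limma without a trend on the mean it fell to 19 (138 of 8750).

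**Figure D3:**
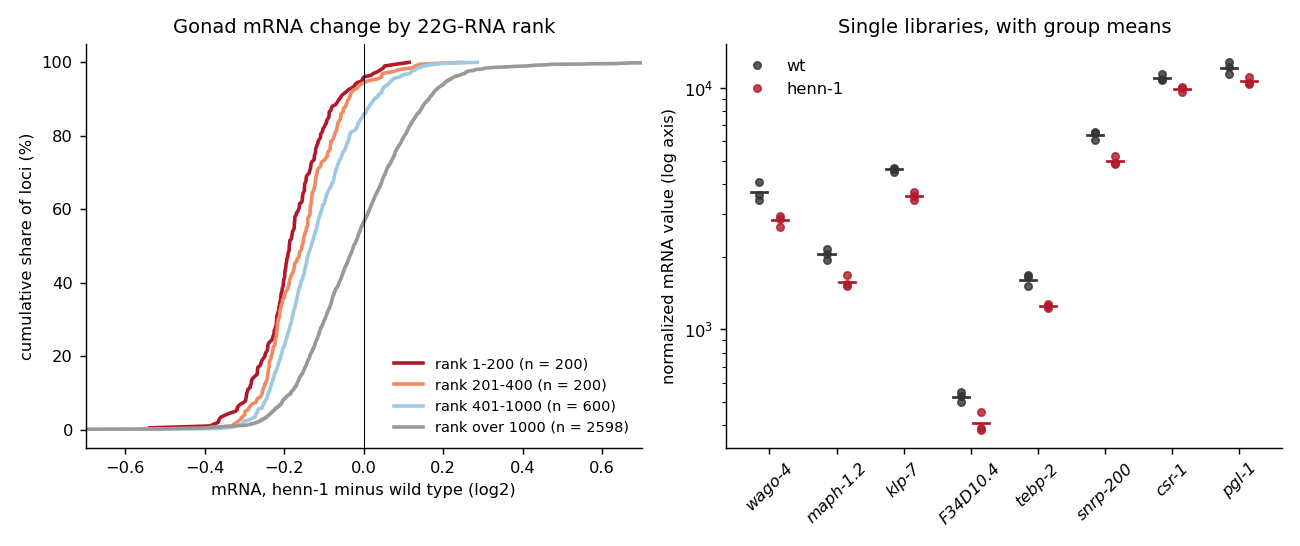
Left, cumulative share of CSR-1 loci against the log2 difference in gonad mRNA between henn-1 and wild type, by rank of 22G-RNA (the axis leaves out values beyond 0.7 either way). The curve of ranks 1 to 200 lies farthest to the left, with a median of -0.19. Right, normalized mRNA values of 8 loci in single libraries (points, log axis) with group means (bars), 3 libraries per genotype.

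Oxidized libraries held far less 22G-RNA signal of the loci than untreated ones. All CSR-1 rows together made up 7.84% to 11.3% of listed signal in untreated and 2.03% to 2.76% in oxidized wild type, and 9.50% to 16.9% against 3.68% to 5.59% in rde-1. Of the 200, all but 1 were called lower in oxidized libraries and 0 higher, where 42.9% of the 12383 features tested were called lower and 34.9% higher. Of 3176 remaining CSR-1 rows, 2893 were called lower and 11 higher. At an unadjusted p under 0.05, again all but 1 of the 200 were lower and 0 higher, against 5454 and 4411 of all features. The edgeR test on recovered reads called 197 loci lower and 1 higher, against 4407 and 4675 of 12590 features. The median log2 difference was -2.27 over the loci and -2.39 over the remaining CSR-1 rows. In rde-1, 193 of the 200 were called lower and 1 higher, where 26% of 12034 features were called lower and 31.1% higher, and the median was -1.37 against -1.43. Of 3204 remaining CSR-1 rows in rde-1, 2101 were called lower and 14 higher. Groups did not overlap, in the direction of a loss, at all but 1 of the 200 in wild type and at 194 in rde-1. The same held at 2966 of 3176 remaining CSR-1 rows in wild type and at 2438 of 3204 in rde-1. Such a count was not made over all features tested, so it does not set the loci apart from the whole set.

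The largest falls in wild type were those of mrp-4, T05H10.1, T19H12.2, rbm-26, egg-6 and pgl-1. egg-6 stood at 1624, 2030 and 2307 untreated and at 452, 217 and 208 oxidized, and fell by 2.84 (SE 0.29, adjusted p = 6.1e-05). pgl-1, of the P granule scaffold, stood at 1292, 1581 and 1729 against 369, 203 and 139, and fell by 2.80 (SE 0.32). In rde-1 the largest were those of the proteasome subunit rpn-2, memi-2, mcm-7, prp-8, pgl-1 and mat-2. rpn-2 stood at 913, 1192 and 1453 untreated and at 309, 298 and 315 oxidized, and fell by 1.92 (SE 0.21, adjusted p = 8.8e-05). No oxidized library of these 3 loci reached an untreated one.

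Seen against the total of all CSR-1 rows in each library, a reference chosen after seeing the data, the differences were much smaller, with medians of -0.37 in wild type and -0.18 in rde-1. In wild type 11 were called higher and 54 lower, where 7021 of 12383 features were called higher and 798 lower. In rde-1 6 were called higher and 7 lower, where 5770 of 12034 features were called higher and 183 lower. Their share of CSR-1 signal was 34.9%, 34.9% and 35.0% untreated and 38.5%, 39.5% and 40.2% oxidized in wild type. These do not overlap (exact permutation test, two-sided, p = 0.1, the smallest that 3 against 3 allows). In rde-1 the shares were 33.7%, 34.5% and 36.3% untreated against 35.8%, 36.8% and 37.4% oxidized, which overlap (exact permutation test, p = 0.2). Such a share is a sum in which a few high loci weigh heavily, while the medians describe the typical locus. In wild type, 7 of the loci that are also WAGO rows changed by a median log2 difference of -0.51 on oxidation, against -2.27 for the other 193. Y37H9A.3, of these 7, changed by 0.16. The part of these loci in the rise of the share was not tested.

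The log2 difference on oxidation was numerically higher in rde-1 than in wild type at every one of the 200, by a median of 0.86. The difference between genotypes passed the test at none of them. It was also above 0 at 2884 of 3201 remaining CSR-1 rows and at 9468 of all 12248 features, whose median was 0.48. The interaction fit over 12 libraries called 0 loci higher and 0 lower, where 0.0245% and 0.00816% of 12248 features were called. At an unadjusted p under 0.05, 108 loci were higher and 0 lower (1880 and 45 of all features), the lowest adjusted p was 0.14, and edgeR on recovered reads called 0. The remaining CSR-1 rows had a median of 0.94, and relative to the CSR-1 total the median of the loci was 0.16. Without the first oxidized wild-type library, 8 loci were called higher, with 321 of 12226 features.

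**Figure D4:**
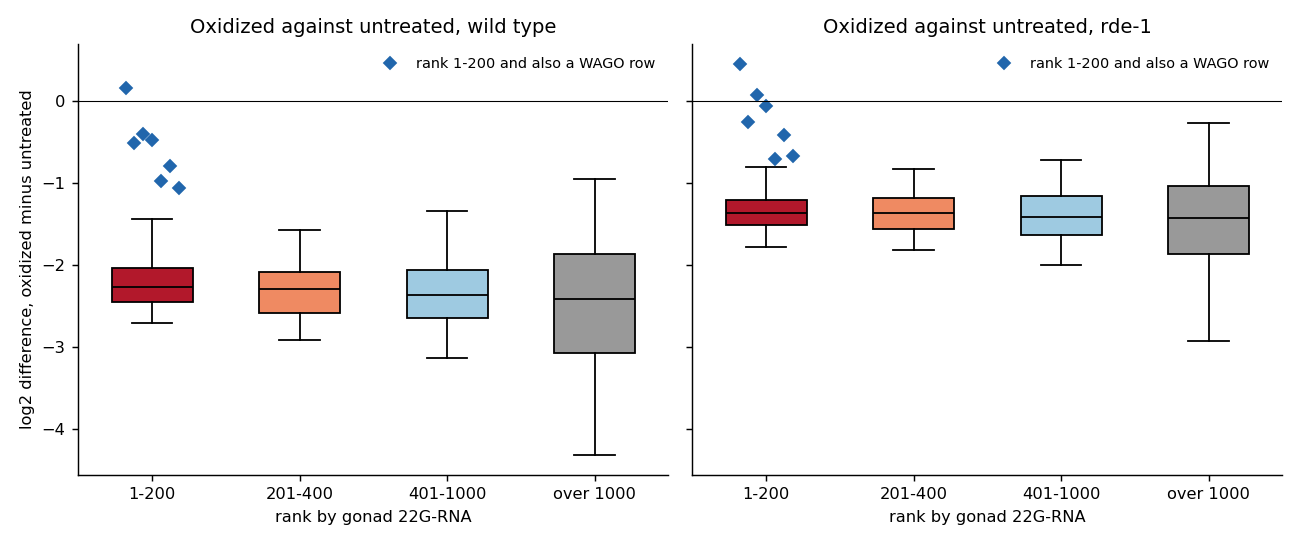
Log2 difference between oxidized and untreated libraries in wild type (left) and rde-1 (right) for CSR-1 rows by rank of gonad 22G-RNA. Boxes show the quartiles and median (-2.27 and -1.37 for ranks 1 to 200), whiskers the 5th and 95th percentiles, and diamonds the 7 loci of the 200 that are also WAGO rows, which lie above the box in both genotypes.

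Without oxidation, 185 of the 200 loci had a higher value in rde-1 than in wild type, but few passed the test. Higher values were also found at 2740 of 3269 remaining CSR-1 rows and at 5656 of all 11113 features tested. As the 2 tables were normalized separately, recovered reads were put on a common scale, RPM. On it, 2 of the 200 were called higher in rde-1 and 0 lower, where 2.28% and 1.84% of 11113 features were called. At an unadjusted p under 0.05, 55 loci were higher and 3 lower, against 1087 and 973 of all features. The edgeR test called 20 loci higher and 0 lower, against 381 and 341 of 11422 features. The median log2 difference was 0.41, against 0.34 for the remaining CSR-1 rows, and 0.04 when reads were scaled to the total of CSR-1 rows. It was 0.11 without the third rde-1 library and 0.24 without the first wild-type library. CSR-1 rows took 7.84%, 9.59% and 11.3% of listed signal in the wild-type libraries and 9.50%, 11.4% and 16.9% in rde-1, and the part of this in the difference was not tested.

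The 2 called loci were tam-1 and symk-1. tam-1, a RING finger protein that modifies expression of repeated transgenes, stood at 115.9, 145.8 and 152.2 RPM in wild type and at 198, 210 and 293 in rde-1, a log2 difference of 0.74 (SE 0.18, adjusted p = 0.039). symk-1 stood at 126, 144 and 157 against 201.3, 214.7 and 251.1, a difference of 0.64 (SE 0.15, adjusted p = 0.033). The groups did not overlap at either. Scaled to the total of CSR-1 rows, the differences were 0.38 and 0.27 and neither passed (adjusted p = 0.17 and 0.37). Without the first rde-1 library 40 loci were called higher, and without the third rde-1 library 4 were called lower. Without any 1 of the wild-type libraries or the second rde-1 library none was called higher. Calls over all features in these fits are not given here, so the counts are not particular to the loci.

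In the IPs of HRDE-1 and WAGO-1, most of the loci were lower than in the matched input. These sets have 1 library each and no test, and the sources used here do not state how their table was scaled. The median log2 ratio of HRDE-1 IP over input was -0.88 for the 200, -0.78 for the remaining CSR-1 rows with an input of at least 10, and 0.44 for WAGO rows. More than 2-fold lower were 42 loci and 1 was more than 2-fold higher, against 10.8% and 4.46% of all 5040 rows. Of 2589 remaining CSR-1 rows, 436 were more than 2-fold lower and 2 higher. The WAGO-1 ratio set the loci further apart from their class, with a median of -1.65 against -0.59 for the remaining CSR-1 rows and 0.36 for WAGO rows. Here 169 loci were more than 2-fold lower and 0 higher, against 24.2% and 9.15% of 4852 rows. Of 2329 remaining CSR-1 rows, 766 were lower and 91 higher by that bound.

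The WAGO-1 ratio changed with the rank of 22G-RNA: its median was -1.65 for the 200 loci, -1.29 for the next 200 rows, -0.88 for those down to rank 1000, and -0.41 beyond. The HRDE-1 ratio moved less, with medians of -0.88, -0.86, -0.79 and -0.76. The loci's share of CSR-1 signal in the WAGO-1 IP was 24%, against 35.3% in its input, while the HRDE-1 IP and input stood at 36.0% and 34.9%. Both ratios were below 0 at 183 of the 200 and at 1630 of 2311 remaining CSR-1 rows. Taken relative to the median of all CSR-1 rows, 0 loci were 2-fold lower and 7 higher for HRDE-1 (3 and 63 of 2589 remaining rows). For WAGO-1, 98 were lower and 5 higher (209 and 398 of 2329 remaining rows).

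The lowest ratio of the 200 in both IPs was that of ubq-1. This gene, which encodes polyubiquitin, stood at 60.2 in the HRDE-1 IP and 153 in its input, and at 14.9 in the WAGO-1 IP and 92.0 in its input, log2 ratios of -1.33 and -2.55. daf-21 had -1.32 and -2.38. tba-2, an alpha tubulin, and fib-1, fibrillarin, were next lowest for HRDE-1 (-1.24 and -1.23), and rme-2 and egg-6 for WAGO-1 (-2.37 each). csr-1 itself had -1.06 and -2.10.

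A small set among the 200 had other values in the oxidation and IP readouts. Of the loci, 7 are listed in the same table as WAGO rows too, with identical gonad values in both rows: Y37H9A.3, imb-2, Y50D7A.1, prde-1, Y79H2A.3, zim-1 and K06B9.2. Their median log2 difference on oxidation in wild type was -0.51, against -2.27 for the other 193 loci, and in rde-1 -0.26 against -1.38. Their median HRDE-1 ratio was 0.28 against -0.88, and their median WAGO-1 ratio 0.04 against -1.69. The authors set the classes, by rules not given in the sources used here, so these differences are a description. A further 33 of the loci also have a row of the ALG-3/4 class, whose values are different, and 160 have neither.

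Y37H9A.3, the fifth highest locus, stood at 14149, 13659 and 13108 in untreated wild type and at 15290, 16457 and 13956 oxidized, a log2 difference of 0.16 that did not pass the test (adjusted p = 0.19). In rde-1 it stood at 9695, 9931 and 10849 untreated and at 13342, 16826 and 11866 oxidized, and rose by 0.45 (SE 0.15, adjusted p = 0.031). It was the one locus called higher there, and that call was lost under 5 of 6 single-library omissions. Its signal in the HRDE-1 IP was 2181 against 2218 in the input. The other 6 were called lower on oxidation in wild type. Y50D7A.1 stood at 8514, 8484 and 8104 untreated and at 7019, 6537 and 5509 oxidized, and fell by 0.40 (adjusted p = 0.011). K06B9.2 had the highest HRDE-1 ratio of the 200, 772 in the IP against 295 in the input, a log2 ratio of 1.39.

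Other loci shared single traits with that set. F13D12.5, not a WAGO row, stood at 2489, 2673 and 2906 untreated and at 1867, 1647 and 1350 oxidized in wild type, the smallest loss among the 193, and its WAGO-1 ratio was -1.85. Above 0 in the HRDE-1 ratio were 8 loci with no WAGO row, with ddx-10, a DEAD-box helicase, at 0.78. Above 0 in the WAGO-1 ratio were 4: tam-1 (0.93), sep-1, separase (0.34), symk-1 (0.14) and nurf-1 (0.0059). Of the remaining CSR-1 rows, 123 of 2589 were above 0 for HRDE-1 and 631 of 2329 for WAGO-1. Among these, 111 and 618 have no WAGO row, so such a sign is not particular to the loci. tam-1 and symk-1 were also the 2 loci called higher in untreated rde-1. Across the 200, the HRDE-1 and WAGO-1 ratios had a Spearman's rho of 0.47, and the oxidation differences in wild type and rde-1 one of 0.63. The points share their libraries.

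**Figure D5:**
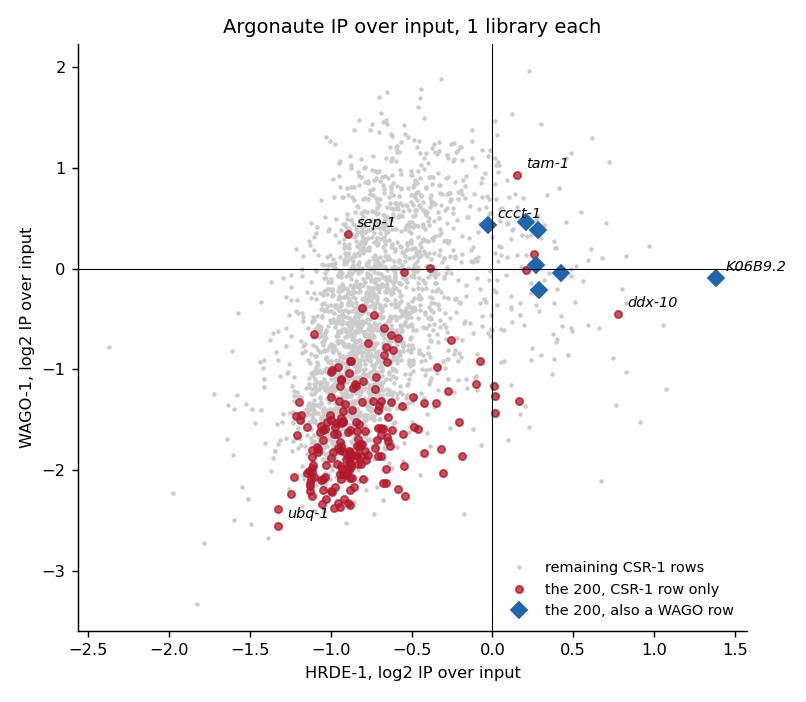
Log2 ratio of IP over input for HRDE-1 (horizontal) and WAGO-1 (vertical) for CSR-1 rows with an input of at least 10 in both, 1 library each. Most of the 200 loci (red) lie at the lower left, with medians of -0.88 and -1.65, and the 7 that are also WAGO rows (blue) lie near or above 0.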

How the data were processed

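The deposited tables hold normalized signal per feature, and per the submitters' processing notes DESeq2 1.18.1, RSEM 1.3.0, STAR 2.5.0a and Trimmomatic 0.35 were used. For the small RNA tables the aligner and genome build, and for the IP table the scaling, were not given in the labels or notes used. In each gonad and oxidation small RNA library the signal fell into whole multiples of 1 read (100% of values, tolerance 0.1), which gave the read totals. The mRNA libraries were rRNA-depleted and summed to between 1.53182e+07 and 1.61594e+07.

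Tests were two-sided limma fits with a trend (limma 3.58.1, R 4.3.3) on log2(value + 1), for features with a mean of at least 10, with Benjamini-Hochberg adjustment over all features tested. Fold changes are on that scale, which understates those of low features. The comparison of untreated rde-1 with wild type used RPM, recovered reads scaled to the library total, with a minimum mean of 1. An edgeR 4.0.16 quasi-likelihood test on recovered reads was an alternative. Each fit was tested on simulated data with known 2-fold changes. False calls were few, but the simulated noise was independent between features. The simulations therefore cannot show how many false calls would come from deviations that features of a library share. In the small RNA sets limma missed most of the simulated 2-fold changes, so a missing call there does not show equal levels. IP ratios are log2((IP + 1)/(input + 1)) for inputs of at least 10.

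The members and lists were chosen with earlier results of these data known. Named were the 10 highest loci, the 2 ranks on each side of the threshold, up to 6 called loci each way per test whose groups did not overlap, the 4 highest and 4 lowest by each IP and henn-1 ratio, up to 4 per list, and the pathway genes. Other loci were named after their values were seen. Symbols came from the files (143), from RefSeq (WBcel235, used for names and gene order only; 33) or were IDs (24). Levels per coding length and sequences were not used here.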

Additional observations from a re-analysis of the deposited data

Results flagged for a closer look

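Of the 200 loci, 33 (16.5%) also have a row of the ALG-3/4 class, against 7.53% of the remaining CSR-1 rows. No comparison above uses these ALG-3/4 rows. They held little signal, in data outside the main measurement. Summed over the 33 rows, the untreated wild-type libraries had 166, 211 and 277 recovered reads, with 26, 30 and 31 rows above 0. A count of 0 would allow up to 3 reads in a single row, which is no bound for such a sum. The CSR-1 rows of the same loci held 49976 to 80463 reads in those libraries.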

How the results depend on the processing

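Called counts depended on settings more than medians did. For henn-1 mRNA, 126 loci lower became 19 without a trend and 68 to 136 with 1 library left out (1 higher without the first henn-1 library, 0 to 1 over these fits), and the median -0.19 became -0.15 with library totals. Lower calls over all 8750 genes tested went from 1082 to 138 without a trend. For oxidation in wild type, edgeR called 1 higher, leaving out a library 0 to 1, and the CSR-1 total (a reference chosen after seeing the data) gave 11 higher, 54 lower and a median of -0.37. In rde-1 the 1 higher call was 0 without a filter, with TMM, library totals, no trend or edgeR, and 0 to 1 with 1 library left out. With the CSR-1 total it was 6, with 7 lower and a median of -0.18. The genotype difference in oxidation gave 0 to 8 calls with 1 library left out and a median of 0.16 against the CSR-1 total.

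The difference between the medians of the loci and of the remaining CSR-1 rows was small for oxidation and changed sign. With a pseudocount of 10 it went from 0.12 to -0.28 in wild type, from 0.05 to -0.10 in rde-1, and from -0.08 to 0.15 for the genotype difference. In rde-1 it was -0.0325 with edgeR and -0.0352 to 0.118 with 1 library left out (-0.01 without the first untreated and -0.0352 without the third oxidized library). For untreated rde-1 against wild type it was -0.0247 to 0.108 with 1 library left out, with -0.0247 without the third rde-1 library. The cause was not tested.

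Untreated rde-1 against wild type called 2 higher and 0 lower. Higher calls were 0 without a filter, with CSR-1 totals or without a trend, 17 with TMM (367 of 11113 features), 20 with edgeR and 0 to 40 with 1 library left out. Lower calls were 1 with TMM (389 features), 1 with CSR-1 totals (368 features) and 0 to 4 with 1 library left out. For the fits with 1 library left out, calls over all features are not given here. The replicate block gave 103 higher and 2 lower, with 1026 and 488 of 11113 features, and 122 lower for henn-1 mRNA, with 941 of 8750. The labels do not say that the numbers pair samples. Within-group deviations of same-numbered libraries correlated at 0.11, 0.063 and 0.203 for untreated rde-1 against wild type, and those of other pairs at -0.144 to 0.016. For oxidation in wild type these were 0.059, 0.027 and 0.051, against -0.048 to 0.005. For oxidation in rde-1 they were 0.014, 0.013 and 0.214, against -0.156 to 0.13. For mRNA they were 0.2, -0.605 and -0.447, against -0.511 to 0.681. Whether the numbers pair samples was not settled, and the main fits did not use them.

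The henn-1 gonad median of -0.01 was -0.27 with TMM and -0.10 with library totals. For HRDE-1, 42 loci 2-fold lower became 27 with a pseudocount of 10 and 0 relative to the CSR-1 median (7 higher), and the difference of medians went from -0.10 to -0.28 with a pseudocount of 10. For WAGO-1, 169 became 98 relative to the CSR-1 median (5 higher), and the difference of medians went from -1.06 to -1.22 with no minimum input. A ranking per coding length was not run, as no coding lengths were used here. Of the values of single named loci, 251 kept direction and call, 29 lost the call and 0 reversed.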
